A study of Mus musculus with 6 samples.

Results

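Ubiquitin ligases of the ITCH, NEDD4, GRAIL, Deltex, Pellino, CHIP and TRAF6 type, outside the CBL family, are described here in mouse follicular helper T (Tfh) cells of the genotype Cbl-/-Cbl-b-/-. The set holds 10 genes, chosen by name as ligases and ligase activators of T cell tolerance: Itch, Nedd4, Nedd4l, Rnf128, Dtx1, Peli1, Ndfip1, Ndfip2, Stub1 and Traf6. Each was found as 1 row, by symbol, among the 47729 genes of the deposited table, and all 10 were among the 13602 genes with enough reads to be tested. The choice used the names of the genes and no measured value, although it was made with earlier results of these data known.

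Tfh cells support B cells in germinal centres. Mice were injected intraperitoneally with NP-OVA, a hapten coupled to a protein carrier, and spleen cells with CD4 and TCR beta on their surface and high PD-1 and CXCR5 were sorted for RNA sequencing. One group of 3 libraries has the genotype Cbl-/-Cbl-b-/- (double knockout) and the other group of 3 is labelled wild-type control; both had the same injection and sort. Strain, age, sex, the cells in which the genes were deleted and whether a library is 1 mouse or a pool are not stated in the labels, and the p-values rest on a spread between libraries that may be technical. In bulk RNA, fewer cells of a type and less RNA per cell cannot be told apart.

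T cell tolerance means that a T cell that meets antigen without full costimulation becomes unresponsive. E3 ligases contribute by attaching ubiquitin to signalling proteins, which marks them for removal or alters their activity. CBL-B, ITCH, GRAIL and Deltex1 are the ligases best known from anergic T cells. ITCH, NEDD4 and NEDD4L belong to the HECT class and bind substrates through WW domains. NDFIP1 and NDFIP2 are membrane adaptors that recruit and activate these HECT ligases. GRAIL, Pellino1 and TRAF6 carry RING or RING-like domains, CHIP carries a U-box, and Deltex1 was first known as a regulator of Notch signalling.

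Library totals ran from 23392254 to 38368885 reads assigned to genes. Values are normalised counts, meaning reads of a gene over the size factor of its library, and log2 fold changes set the double knockout over the control, computed on log2(value + 1) and tested with limma. The defining Tfh markers were abundant in every library, with Cxcr5 between 29322 and 44577, Pdcd1 between 26980 and 35462 and Bcl6 between 8801 and 13973 normalised counts. None of the 11 Tfh markers listed passed the test. Still, Cd3e was higher in every double knockout library (40124 to 43463 against 32994 to 34623). Lower in every one were Cd4 (64794 to 66382 against 79244 to 82665), Trbc1 (4962 to 5206 against 5659 to 7126) and Trbc2 (20760 to 23569 against 28651 to 36470). In the rest of the 11 the groups overlapped. Cbl stood at 2221 to 3856 in the double knockout and 8614 to 12945 in the control, and Cblb at 7459 to 8054 and 6955 to 10037. Both sum all exons of a gene; as the labels do not say which exons were removed, the value of Cblb checks nothing about its deletion. The Y-linked transcript Ddx3y stood at 0 to 7.16 in the double knockout and 2812 to 3721 in the control, and the X-inactivation transcript Xist at 12769 to 18100 against 12.9 to 970, so sex and genotype cannot be told apart in any difference below.

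Of the 10 genes, 1 fell and 1 rose in the libraries labelled Cbl-/-Cbl-b-/-, by limma at an adjusted p below 0.05. Dtx1, the anergy-linked Deltex ligase, fell to 0.249 of its control level by ratio of means. Rnf128, which encodes GRAIL, rose 1.54-fold. The other 8 did not pass, which does not show equal levels. Over all genes tested 2.93% passed in either direction, 1.07% as lower and 1.85% as higher. As the set was chosen with results known, 2 of 10 beside this share cannot show an excess. The same 2 genes passed with edgeR, where 2.98% of genes passed (1.9% higher, 1.08% lower), and with DESeq2, where 8.06% did (4.88% higher, 3.19% lower). They also passed in the authors' deposited table, which calls 7.18% of genes (4.46% higher, 2.73% lower). Leaving out single libraries ended the call of Rnf128 in all 6 fits and that of Dtx1 in 4 of 6, given with each gene. In 3 of the 10 genes the groups did not overlap, Rnf128 and Stub1 being higher and Dtx1 lower, where 23.6% of all genes tested showed no overlap (12.3% higher, 11.3% lower). The median fold change of the 10 was -0.04, with 3 positive and 7 negative, beside -0.0011 over all genes. The median size of change without regard to sign was 0.15 in the 10 and 0.19 over all genes tested.

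**Figure D1:**
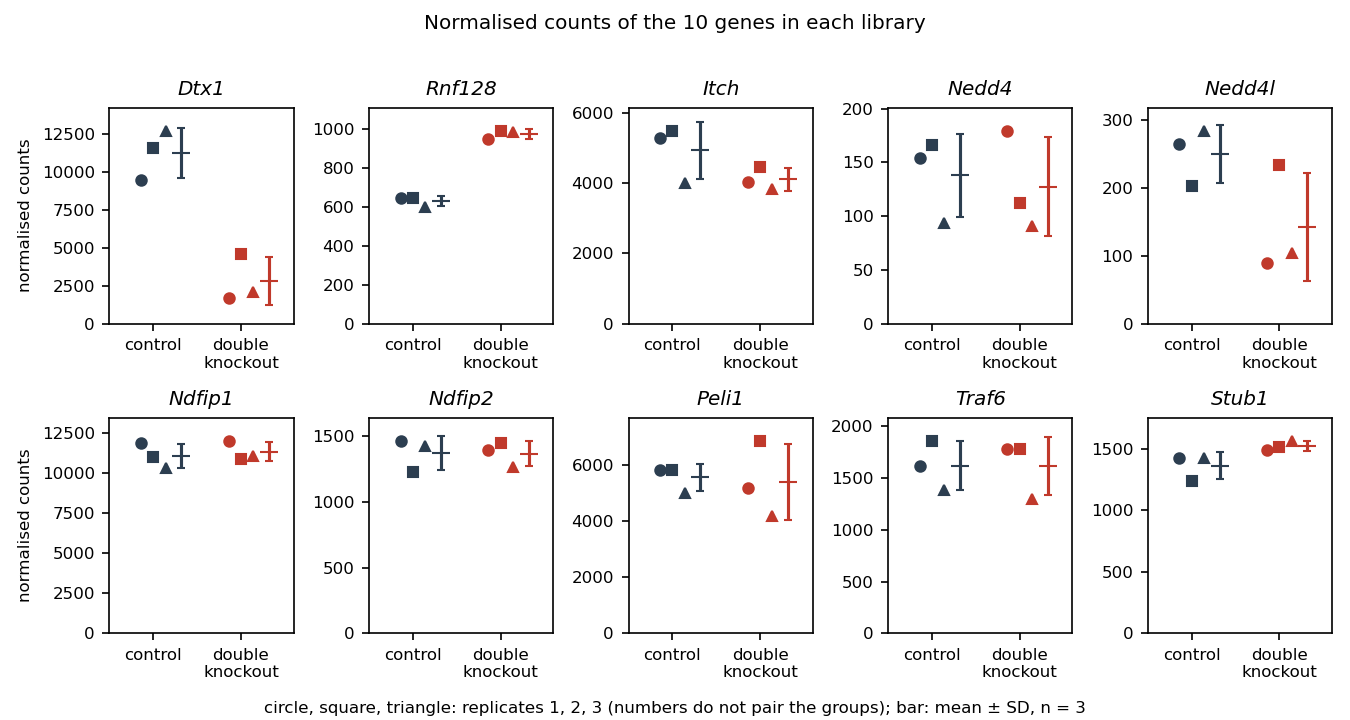
Normalised counts (vertical axes, starting at 0) of each gene in the 3 control libraries (dark) and the 3 double knockout libraries (red), with bars for mean ± SD, n = 3. Dtx1 and Rnf128 are separated widely, Stub1 narrowly (nearest libraries differ 1.04-fold), and the other 7 genes overlap between groups.

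Dtx1 (ENSMUSG00000029603, GRCm38 chromosome 5, 120680202 to 120711927, minus strand) encodes Deltex1, which in mouse T cells is induced through calcium and NFAT and promotes anergy. Its normalised counts were 1710, 4602 and 2099 in double knockout replicates 1 to 3 and 9484, 11582 and 12745 in control replicates 1 to 3. Every double knockout library lay below every control, and the nearest pair of libraries, double knockout replicate 2 and control replicate 1, still differed 2.06-fold. The means were 2803 ± 1569 and 11270 ± 1653 (SD, n = 3). The log2 fold change was -2.13 ± 0.33 (SE), with a 95% confidence interval of -2.89 to -1.38 and a limma adjusted p of 0.0191.

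Among the 146 genes called lower, 43 had a larger fall than Dtx1. Dtx1 varied more within the double knockout than within the control, with coefficients of variation of 56% and 14.7% beside medians of 14.1% and 13.9% over all genes tested. Double knockout replicate 2 was the high library. Without it the fall was larger and its error smaller, at -2.56 (limma adjusted p = 0.000767). The call also held without double knockout replicate 3 (limma adjusted p = 0.0386). It ended on leaving out double knockout replicate 1 (-1.85, adjusted p = 0.0683), and likewise control replicates 1 (-2.25, adjusted p = 0.0697), 2 (-2.11, adjusted p = 0.0775) or 3 (-2.04, adjusted p = 0.0584). With edgeR and DESeq2 on read counts recovered from the deposited values, the fall was -2.01 in each. The authors' deposited table gives a smaller fall, of -1.21, and the reason was not tested.

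The library with the most Dtx1 in the double knockout was also the library with the most regulatory T cell transcripts. Foxp3, their lineage factor, was at 150, 5451 and 295 in double knockout replicates 1 to 3 and between 286 and 768 in the controls. None of the 8 regulatory T cell markers listed passed, none was at 0 in all libraries, and their summed level ran from 10755 to 21248 in the double knockout and 15448 to 20108 in the control. In the controls Foxp3 was highest in replicate 2 (768) and Dtx1 in replicate 3 (12745). Ikzf2, the most abundant of the 8 markers, stood at 7951, 11115 and 12291 in double knockout replicates 1 to 3. In control replicates 1 to 3 it stood at 17427, 16302 and 12353. Without double knockout replicate 2 the fall of Dtx1 was larger, as given above. A part of regulatory T cells in the level of Dtx1 was not tested.

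Markers of other cells also moved with genotype. Of 7 tested gamma-delta and NKT cell markers, Trdc rose and Klrb1c fell, with Klra1 at 0 throughout. The list summed to 6720 to 13931 against 3238 to 3760. Most of the double knockout sum was Trdc (5425 to 12060 against 815 to 999). Klrb1c made most of the control sum (366 to 1122 against 2222 to 2655). Of the CD8 pair, Cd8b1 fell while Cd8a was at or near 0 in every library (0 to 3.58), and their sum was 113 to 188 against 420 to 510. None of 3 tested plasma cell markers passed, and that list summed to 347 to 658 against 1051 to 1742. Most of that sum was Jchain (216 to 585 against 924 to 1572). Sdc1 stood at 25.4 to 44.1 against 45.2 to 85.1, and Derl3 overlapped at 45.9 to 97.5 against 29.4 to 82.2. Of 6 erythroid markers Hba-a1 and Hba-a2 fell, with a sum of 17.0 to 133 against 277 to 636. Hba-a2 stood at 0 to 1.02 in the double knockout against 11.0 to 29.7 in the control. It passed the filter on low values only through the controls, where it was high. Its lack of overlap follows from that filter, and its call is given with that limit. B cell markers (6 tested, none passed) summed to 890 to 1892 against 1037 to 1613, and myeloid markers (4 tested, none passed) to 1343 to 1647 against 1287 to 1618. Most of the myeloid sum was Cst3 (1286 to 1559 against 1188 to 1492), while Lyz2 was at 15.2 to 38.5 against 42.2 to 66.7, Adgre1 at 8.05 to 10.7 against 12.3 to 26.7 and Csf1r at 23.3 to 47.5 against 34.3 to 94.3. The part of these cells in the fall of Dtx1 or the rise of Rnf128 was not tested.

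Rnf128 (ENSMUSG00000031438, chromosome X, 139563316 to 139673145, plus strand) encodes GRAIL, a membrane RING ligase first described in anergic CD4 T cells, where it acts on CD40 ligand and tetraspanins. It was counted at 947, 991 and 983 in double knockout replicates 1 to 3 and at 644, 647 and 601 in the controls. The 2 groups were narrow and well apart, with coefficients of variation of 2.40% and 4.11%, and the nearest libraries differed 1.46-fold. The means were 974 ± 23.4 and 630.5 ± 25.9 (SD, n = 3), which is 0.63 ± 0.11 (SE) as a log2 fold change, with a 95% confidence interval of 0.38 to 0.88 and a limma adjusted p of 0.0271.

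The rise of Rnf128 kept its size when single libraries were left out, but not its call. It was 0.65, 0.61 and 0.62 without double knockout replicates 1, 2 and 3 (limma adjusted p = 0.12, 0.0503 and 0.0562) and 0.64, 0.65 and 0.59 without control replicates 1, 2 and 3 (adjusted p = 0.11, 0.0899 and 0.0637). Rnf128 lies on the X chromosome, where the median fold change of the 431 genes tested was -0.01 with 2.32% passing as higher and 0.232% as lower.

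**Figure D2:**
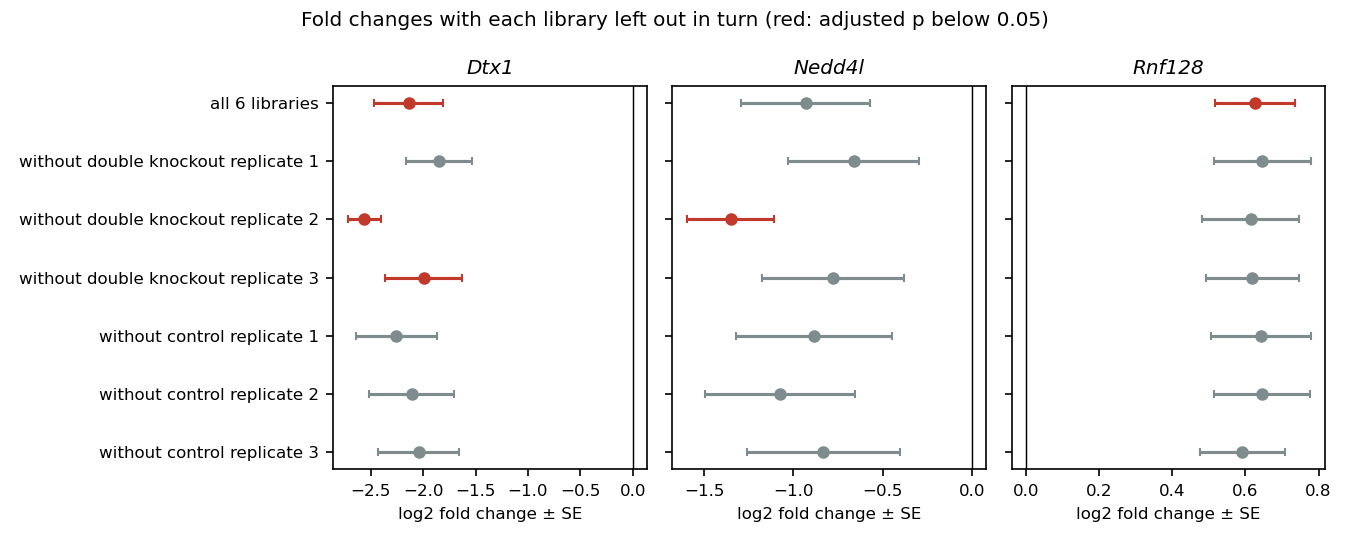
Log2 fold change ± SE (horizontal axes, each with its own range) of Dtx1, Nedd4l and Rnf128 with all 6 libraries and with each library left out; red marks an adjusted p below 0.05. The rise of Rnf128 stays between 0.59 and 0.65 and the fall of Dtx1 between -2.56 and -1.85, while Nedd4l ranges from -1.35 to -0.66 and passes only without double knockout replicate 2.

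Among 10017 other genes with a mean of at least 50, those with the pattern most like Dtx1 over the 6 libraries were Dennd3 on chromosome 15 and Cd8b1 on chromosome 6. Their profiles, centred on their means, differed from that of Dtx1 by a root mean square of 0.19 and 0.26 on the log2 scale, where the profile of Dtx1 itself had a root mean square of 1.16. Dennd3 stood at 147, 298 and 127 in the double knockout and 673, 662 and 827 in the control. For Rnf128 the most alike were Sclt1 on chromosome 3 and Cep135 on chromosome 5, at 0.04 and 0.05 beside 0.32 for Rnf128 itself. Sclt1 stood at 389, 433 and 415 against 284, 282 and 250. These 4 genes were picked for likeness, so their own differences are a description.

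The HECT ligases and their activators came next. Itch (ENSMUSG00000027598, chromosome 2, 155133509 to 155226855) targets JUNB and FOXO1 and is needed for Tfh differentiation in mice. It stood at 4037, 4450 and 3822 in the double knockout and 5281, 5487 and 4005 in the control. Control replicate 3 lay below double knockout replicates 1 and 2, so the groups overlapped. The log2 fold change was -0.25 with a 95% confidence interval of -0.57 to 0.06 (limma adjusted p = 0.406), which spans folds of 0.675 to 1.04.

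Nedd4l (ENSMUSG00000024589, chromosome 18, 64887705 to 65217828), best known for limiting the epithelial sodium channel, was scarce, at 89.2, 234 and 105 in the double knockout and 265, 203 and 285 in the control. Double knockout replicate 2 lay among the controls and the other 2 far below them. The log2 fold change of -0.93 ± 0.36 did not pass (limma adjusted p = 0.24). Without double knockout replicate 2 it was -1.35 and passed as lower (limma adjusted p = 0.0284). With each library weighted by how closely its values followed its group means, it was -1.16 and passed too (limma adjusted p = 0.0484). Those weights called 1368 genes in all, against 398 without them. An antisense gene overlaps exons of Nedd4l in the annotation, and reads of the pair cannot be told apart without a known strand setting.

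Nedd4 (ENSMUSG00000032216, chromosome 9, 72662346 to 72749852), which in mouse T cells promotes activation by acting on CBL-B, was scarce as well. It stood at 179, 112 and 90.4 in the double knockout and 154, 166 and 93.7 in the control, so that all controls lay within the range of the double knockout. Its fold change of -0.13 had a 95% confidence interval of -0.89 to 0.63, so changes of up to 1.55-fold upward and down to 0.538 of control are within the error.

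Ndfip1 (ENSMUSG00000024425, chromosome 18, 38410396 to 38465303) activates ITCH against JUNB and restrains T cell cytokine production. It was abundant and level, at 12053, 10917 and 11106 in the double knockout and 11883, 11044 and 10347 in the control. Its fold change of 0.04 had the narrowest 95% confidence interval of the 10 genes, -0.19 to 0.26. Ndfip2 (ENSMUSG00000053253, chromosome 14, 105258573 to 105309298), the related adaptor, stood at 1390, 1449 and 1261 against 1464, 1224 and 1423, a fold change of -0.00 with an interval of -0.27 to 0.26. For both adaptors the interval leaves out rises above 1.20-fold and falls below 0.830 of control.

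Peli1 (ENSMUSG00000020134, chromosome 11, 21091291 to 21150323) encodes Pellino1, which in mouse T cells acts on the NF-kappaB subunit c-Rel and restrains activation. It stood at 5176, 6882 and 4176 in the double knockout and 5840, 5835 and 5027 in the control. The double knockout libraries lay on both sides of the controls, with a coefficient of variation of 25.3% against 8.40%. The fold change was -0.07 with a 95% confidence interval of -0.47 to 0.34.

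Traf6 (ENSMUSG00000027164, chromosome 2, 101678429 to 101701669), the ligase that links interleukin-1 and Toll-like receptors to NF-kappaB, stood at 1776, 1780 and 1297 against 1617, 1861 and 1383. The groups overlapped over most of their range. The fold change was -0.01 with an interval of -0.38 to 0.37.

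Stub1 (ENSMUSG00000039615, chromosome 17, 25830505 to 25833404) encodes CHIP, the U-box ligase that ubiquitinates clients of HSP70 and HSP90 and acts on FOXP3 in T cells. It stood at 1488, 1514 and 1567 in the double knockout and 1430, 1235 and 1425 in the control. The groups did not overlap, but the nearest libraries differed only 1.04-fold and the fold change of 0.16 ± 0.10 did not pass (limma adjusted p = 0.489). Exons of Stub1 overlap those of Jmjd8 on the opposite strand, whose mean was 633, and of the microRNA gene Mir3082, so some reads may be shared.

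**Figure D3:**
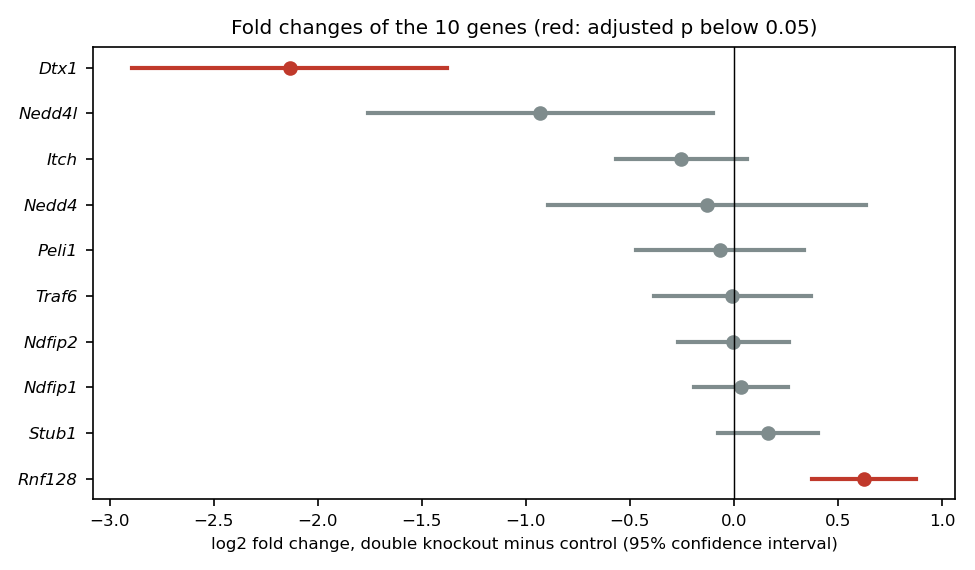
Log2 fold change (double knockout minus control, horizontal axis) with its 95% confidence interval for each gene; red marks an adjusted p below 0.05. The intervals of Dtx1 and Rnf128 lie on opposite sides of 0; that of Nedd4l also leaves out 0 but did not pass after adjustment over 13602 genes.

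Per kilobase of exon the order of the genes changed with genotype mainly through Dtx1. In the control Dtx1 was first, at 2139 ± 314 normalised counts per kb (SD, n = 3), followed by Ndfip1 at 1752 ± 121, and the ranges of these 2 overlapped. Peli1 (850 ± 71.4), Stub1 (532 ± 43.4) and Itch (507 ± 82.7) came next, with overlap between Stub1 and Itch. Traf6 (206 ± 30.3) and Rnf128 (182 ± 7.49) overlapped as well, above Ndfip2 (119 ± 11.1). Nedd4l (14.2 ± 2.42) and Nedd4 (12.6 ± 3.52) overlapped each other far below the rest. In all 3 control libraries Itch exceeded Nedd4 by 37.4- to 48.3-fold per kb.

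In the double knockout Ndfip1 was first at 1794 ± 96.1 per kb and Dtx1 stood at 532 ± 298, behind Peli1 (826 ± 209) and Stub1 by mean, with a range that overlapped those of Stub1 (595 ± 15.7) and Itch (423 ± 32.9). Rnf128 (281 ± 6.75) lay above Traf6 (205 ± 35.2) without overlap, the reverse of their order in the control. Dtx1 took 28.9% to 38.5% of the per-kb sum of the 10 genes in the control libraries and 6.97% to 16.3% in the double knockout. Without Dtx1 the sum was 3867 to 4417 per kb in the control and 3969 to 4485 in the double knockout, so the groups overlapped. The level of Dtx1 over that of Rnf128 per kb was 9.68, 11.8 and 13.9 in the controls and ran from 1.19 to 3.05 in the double knockout libraries.

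**Figure D4:**
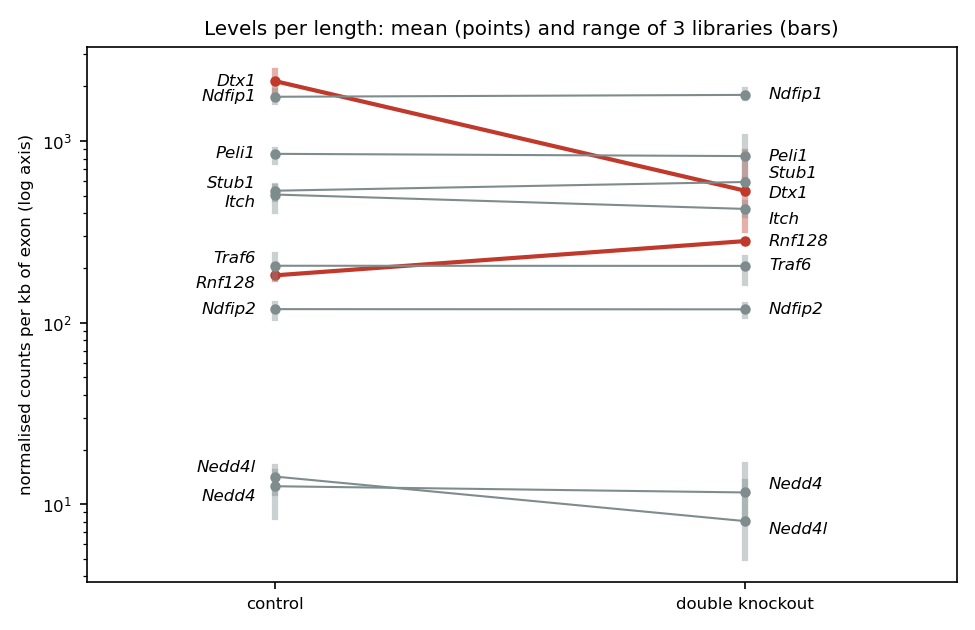
Mean normalised counts per kb of exon (log axis) of each gene in control and double knockout, with vertical bars for the range of 3 libraries. Dtx1 drops from first place to the level of Stub1 and Itch (2139 to 532 per kb), Rnf128 rises past Traf6, and the lines of the other genes are near level apart from Nedd4l (14.2 to 8.07).

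The libraries differed in how the 10 genes sat within their group. Double knockout replicate 2 held the highest value of its group for 7 of the 10 genes, Dtx1, Nedd4l and Peli1 by the widest margins. Double knockout replicate 3 was the lowest of its group for 5 genes and control replicate 3 for 6. The matching shares over all genes tested are not given, so these counts are not shown to be particular to the 10.

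Genes around the 10 were read from lists, given here with counts of members tested. Over all genes tested 2.93% passed (1.85% higher, 1.07% lower), and in 23.6% the groups did not overlap. The lists were chosen with results known, so their counts beside these shares cannot show an excess. None of 5 tested HECT ligases of the NEDD4 family outside the set passed (median -0.17), and in 1 the groups did not overlap. Smurf1, which acts on TGF-beta signalling, stood at 1350, 1489 and 1296 against 1158, 1316 and 1033 (log2 fold change 0.24). Smurf2 stood at 2459, 3119 and 1912 against 3828, 3124 and 2425 (-0.33). Hecw1 was at 0 in every library.

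Of 17 tested Deltex, Pellino, TRAF and GRAIL-like relatives, 1 rose and 2 fell (median 0.06). Traf4, a TRAF protein linked to cell migration and polarity, stood at 714, 834 and 889 in the double knockout and 425, 378 and 486 in the control (log2 fold change 0.92 ± 0.15, limma adjusted p = 0.0232). Traf5, which binds OX40 and CD27, stood at 2235, 2294 and 2125 against 3135, 3066 and 2959 (-0.46 ± 0.09, adjusted p = 0.0355). Peli3, a scarce Pellino, stood at 37.9, 14.7 and 43.8 against 133, 98.7 and 147 (-2.06 ± 0.43, adjusted p = 0.0466). In 8 of the 17 genes, these 3 among them, the groups did not overlap, beside 23.6% of all genes tested. The other Deltex genes tested did not pass, with fold changes of 0.05 for Dtx2, 0.30 for Dtx3, 0.30 for Dtx3l and 0.36 for Dtx4. With each library left out in turn, Traf5 lost its call without any of the 6 (-0.49 to -0.43). Traf4 lost it without double knockout replicate 1 or 3 or control replicate 1 or 2 (0.83 to 1.01 over all 6 fits), and Peli3 without double knockout replicate 1 or any control (-2.34 to -1.59). Traf1 passed as higher without double knockout replicate 3 (0.50, limma adjusted p = 0.0406).

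Among 22 substrates and bound proteins of the 10 ligases and adaptors, Cd83, a surface protein that GRAIL ubiquitinates, fell and 21 did not pass (median -0.06). Cd83 stood at 653, 646.5 and 662 in the double knockout and 1330, 1347 and 1071 in the control, with no overlap (-0.93 ± 0.13, limma adjusted p = 0.0129). The call ended without double knockout replicate 1 or control replicate 1 or 2 (-1.03 to -0.87 over all 6 fits), and then no gene of the list passed as lower. Smad3, which binds NEDD4L and carries TGF-beta signals, stood at 3041, 4288 and 1825 against 6013, 6127 and 7583 (-1.18, limma adjusted p = 0.0648). Jun, a substrate of ITCH, stood at 6110, 10316 and 5707 against 11732, 13208 and 14676 (-0.89, adjusted p = 0.0757). Neither gene overlapped between groups, and without double knockout replicate 2 both passed as lower, Smad3 at -1.47 (adjusted p = 0.0142) and Jun at -1.15 (adjusted p = 0.00582), which made 3 genes of the list lower. Cd40lg, another GRAIL substrate, did not pass (-0.12), nor did the ITCH substrates Junb (-0.09) and Foxo1 (-0.30) or the Pellino1 substrate Rel (-0.17). In 8 of the 22 genes, Cd83, Smad3 and Jun among them, the groups did not overlap, beside 23.6% of all genes tested. These are transcript levels, while ubiquitin ligases act on proteins.

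None of 14 ubiquitin-conjugating enzymes and deubiquitinases that work with these ligases passed, and the list held fold changes between -0.27 and 0.25 (median -0.02). Cyld, which removes K63-linked chains, stood at 11090, 12854 and 11658 against 9948, 10514 and 9802. Ube2n, the conjugating enzyme of TRAF6, stood at 2637, 2745 and 3302 against 3483, 3381 and 3337. In 3 of the 14 genes, these 2 among them, the groups did not overlap, beside 23.6% of all genes tested. None of 21 tested genes of the TRAF6 and Pellino pathway passed either (median -0.03), and in 4 the groups did not overlap. Irak4, the kinase upstream of TRAF6, stood at 2231, 2566 and 2275 against 3124, 2825 and 2645. The nucleic acid receptor Tlr7 stood at 112, 138 and 17.9 against 22.6, 16.4 and 4.59, and passed as higher only without double knockout replicate 3 (3.25, limma adjusted p = 0.0499). In that fit Il18r1, a chain of the interleukin-18 receptor, passed as higher as well (1.86, adjusted p = 0.0176).

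None of 13 genes listed around CHIP, mostly chaperones and cochaperones, passed, and the median was -0.16. Bag1, a cochaperone that binds HSP70, stood at 3429, 3509 and 3942 against 5034, 4390 and 4383. Hspa8, the constitutive HSP70 that brings clients to CHIP, stood at 23639, 31430 and 45587 against 56213, 45729 and 63240. The groups did not overlap, though their nearest libraries were almost level, and it passed as lower only without double knockout replicate 3 (limma adjusted p = 0.0406). In 5 of the 13 genes the groups did not overlap, beside 23.6% of all genes tested.

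Of 19 tested genes of the Notch pathway around Deltex1 none passed (median -0.00). Notch3 stood at 229, 13.9 and 140 against 6.15, 4.11 and 0.918, and Hes5, a transcriptional target of Notch, at 10.2, 45.9 and 25.9 against 92.3, 53.5 and 81.7. In 6 of the 19 genes, these 2 among them, the groups did not overlap, beside 23.6% of all genes tested. Notch3 reached a value of 10 only in the double knockout libraries, so it was tested only through the group where it was high. With every control below 10, its lack of overlap follows from the filter and is no added result. Notch1 stood at 13313 to 17529 against 10750 to 13838 and Rbpj, the DNA-binding partner of Notch, at 850 to 2474 against 998 to 1186.

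Of 19 genes tied to anergy, 2 fell and 1 rose (median -0.06). The nuclear receptor Nr4a1 stood at 2186, 2780 and 2230 in the double knockout and 4694, 5720 and 6331 in the control (-1.22 ± 0.14, limma adjusted p = 0.00882), and passed in each of 6 fits that left out 1 library. Egr3, a transcription factor that promotes anergy genes with EGR2, stood at 735, 847 and 713 against 1207, 1553 and 1623 (-0.92 ± 0.15, adjusted p = 0.0195). Ndrg1, an anergy-linked factor, stood at 264, 225 and 175 against 69.7, 91.8 and 75.3 (1.47 ± 0.24, adjusted p = 0.0222). The groups did not overlap in 7 of the 19 genes, these 3 among them, beside 23.6% of all genes tested. Egr2 (-0.13), Nfatc1 (-0.36), Dgka (-0.06) and Izumo1r (-0.00), the folate receptor 4 gene, did not pass. Egr3 lost its call without double knockout replicate 1 or control replicate 2 or 3, and Ndrg1 without double knockout replicate 1 or any control. Nrgn passed as lower without double knockout replicate 1 (-0.97, limma adjusted p = 0.0329).

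**Figure D5:**
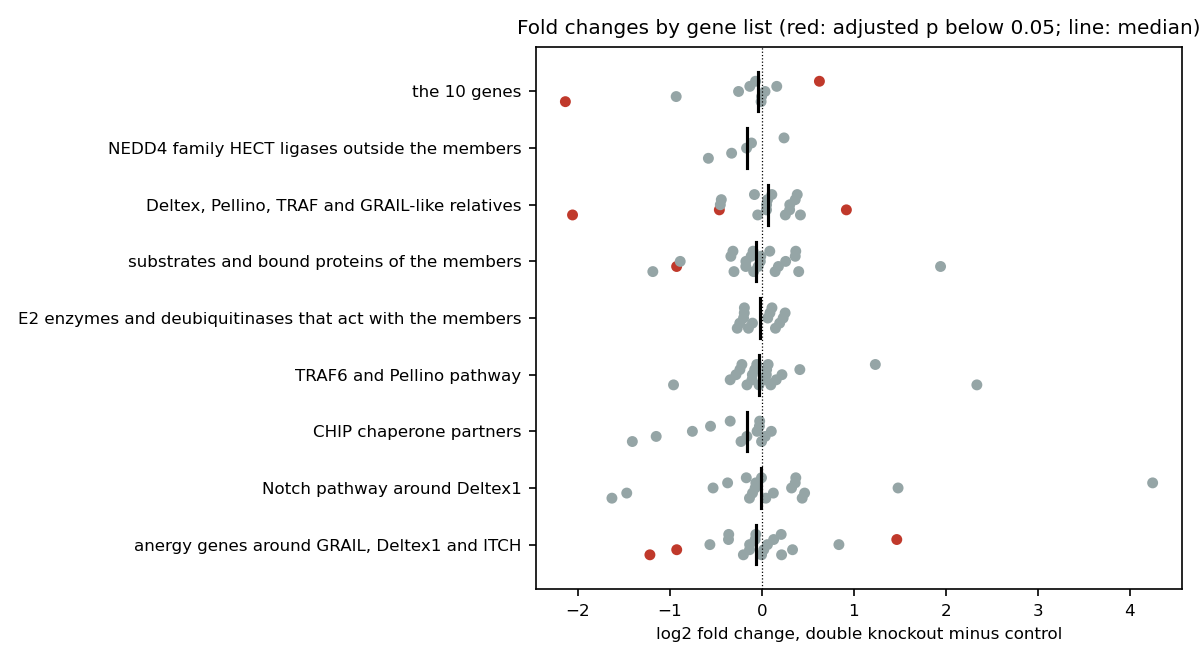
Log2 fold change (double knockout minus control, horizontal axis) of each tested gene, by list, with red points for an adjusted p below 0.05 and a line at each list's median. List medians lie between -0.17 and 0.06, and the genes that passed lie on both sides of 0 (Dtx1 at -2.13 and Rnf128 at 0.63 among the 10).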

How the data were processed

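RNA of 6 sorted Tfh libraries (3 double knockout, 3 control, grouped by their titles) was read from 1 deposited table of 47729 genes. Its values are a normalised signal: the authors scaled each library's gene counts by a single size factor, per the file headers. GRCm38, DESeq2 1.12.3, featureCounts 1.4.6 and STAR 2.5.1b appear without roles in the submitters' processing notes; no source used here gives the annotation release, strand setting or multimapping rule. The authors' log2 fold changes, a test score and p-values are deposited beside them, per the file headers, and served only as an alternative. Every value was a whole multiple of 1 read (100% within 0.001 of a read), so read counts were recovered from the deposited values for count tests and depth.

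Genes with a value of at least 10 in at least 3 libraries were tested with limma-trend 3.58.1 (R 4.3.3) on log2(value + 1), two-sided, with Benjamini-Hochberg adjustment over 13602 genes and a threshold of 0.05; log2 changes of scarce genes are understated. The test was checked on simulated data. Levels per kb use the union of exons in GENCODE M21 (GRCm38), which gave coordinates for 13557 of the genes tested. Members and lists were chosen with earlier results of these data known. Named genes are all 10 members, up to 4 passing genes of each list by smallest p (up to 2 where none passed), and the 2 genes most like each member that passed; other names were chosen after their values were seen. Alternatives were edgeR 4.0.16 and DESeq2 1.42.0 on recovered reads (edgeR called 405 genes), the comparison in the authors' deposited table, a pseudocount of 0.5 or 10, a filter at 50 or none, TMM and quantile scaling, library weights, a replicate block and each library left out. Leaving libraries out for list counts and list genes was added after the data were seen. Library totals were 23392254 to 38368885 reads. Replicates of a group differed by more than sampling noise, with chi-square of 10.8 to 93.5 per degree of freedom. Python 3.11.15, numpy 2.4.6, pandas 2.3.3 and matplotlib 3.10.9 were used.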

Additional observations from a re-analysis of the deposited data

How the results depend on the processing

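Rnf128 was called in 10 of 11 alternatives that kept all libraries and Dtx1 in all 11. Against 398 genes called (252 higher, 146 lower), DESeq2 called 1096 (663 and 433), the comparison in the authors' deposited table gave 975 (605 and 370) and library weights 1368 (769 and 599); the cause was not tested. Library weights called 2 of the 10 genes lower (Dtx1 and Nedd4l) and put Traf6 at 0.033. Leaving out 1 library gave 58 to 498 genes called, 33 to 254 higher and 13 to 244 lower: 69 without double knockout replicate 1, 498 without replicate 2 and 310 without replicate 3, and 58, 117 and 232 without control replicates 1, 2 and 3. In those 6 fits, which hold fewer samples, 0 of the 10 genes were called higher and 0 to 2 lower. Genes near 0 changed sign among them: Nedd4 ranged from -0.41 to 0.085, Peli1 from -0.26 to 0.10, Ndfip1 from -0.014 to 0.086, Ndfip2 from -0.081 to 0.055 and Traf6 from -0.12 to 0.14. Same-numbered libraries of the 2 groups had deviations correlated at 0.0739, 0.0538 and 0.0924, so the numbers were not taken to pair them, although each library correlated best with its own number, a hint from the data and not the design. With the replicate block 265 genes were called (170 higher, 95 lower), and 0 of the 10 were higher since Rnf128 had an adjusted p of 0.0536 (limma). Notch3 gave a value in only 3 of the 6 fits, as it fell under the filter in the others. For the 8 genes that did not pass, the confidence intervals state which sizes of change 3 libraries a group leave possible.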
